A study of Mus musculus with 8 samples.

Results

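Dividing cells switch on a shared set of genes, and 45 of these were followed here in mouse macrophages. They were given as a list of symbols of genes with known roles in division, chosen with earlier results of these data known. All 45 stood among the 24421 gene symbols of the count files and among the 13821 genes with enough counts to be tested. For the comparison of DNA synthesis with cell division they were placed in 3 classes: 14 replication genes, which act in S phase, 21 mitotic genes, which act in G2 and M phase, and 10 control genes, the cyclins, transcription factors and checkpoint kinase that govern the passage between phases. RNA was sequenced from primary macrophages of mice on a normal diet, with 3 libraries from wild-type mice (WT), 3 from mice that the samples call LysM-DKO and 2 from mice called ABCG1KO. The series text speaks of Epsin-DKO instead of LysM-DKO, which was read as another name of that group. Epsins are adaptor proteins of endocytosis, ABCG1 exports cholesterol from cells, and LysM is the name of the lysozyme promoter often used to delete genes in myeloid cells. The labels give no age, sex or tissue of origin and do not say whether animals were pooled, so the p-values measure the spread between these libraries, which may in part be technical.

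Before a cell copies its DNA, the origin recognition machinery loads the MCM2-7 ring onto origins with the help of CDC6 and CDT1. CDC45 and the GINS complex turn the ring into the active helicase, and PCNA holds the polymerases on the template while ribonucleotide reductase and thymidylate synthase supply nucleotides. The genes of this first wave are driven by E2F factors, while the mitotic genes are driven later by the MuvB complex with B-MYB and FOXM1 through CHR elements and by NF-Y through CCAAT boxes. Macrophages of adult tissues mostly rest between divisions, although resident macrophages can renew themselves by dividing, so in a mixed sample these transcripts follow the small share of cells that cycle.

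Of the motifs that this background names, the CCAAT box stood in most promoters of the replication and mitotic members and the CHR element and the E2F site in fewer. None of the 3 stood in the few control promoters available, by the first entry of each gene. The promoters of 5 members show the layout. RefSeq promoters (GRCm38.p6, the 250 bases before the gene start) were available for 35 of the 45 members and 27025 genes in all. The CCAAT box (CCAAT, on either strand) stood in 16 of 18 mitotic promoters (88.9%), 9 of 12 replication promoters (75.0%) and 0 of 5 control promoters, against 34.5% of all promoters. With any entry of a gene counted, 1 of the 5 control genes held a CCAAT box. The CHR element TTTGAA stood in 6 of 18 mitotic promoters (33.3%) and 2 of 12 replication promoters (16.7%), against 16.3% of all, and all 6 of the mitotic ones also held a CCAAT box, a pair seen in 5.73% of all promoters. An E2F site, searched as TTTCCCGC or TTTCGCGC or TTTGCCGC or TTTGGCGC on either strand, stood in 4 of 12 replication promoters (33.3%) and 1 of 18 mitotic promoters (5.56%), against 1.91% of all. A match is a description of the letters and says nothing of binding. The 150 bases before the start are printed 5′ to 3′ in the gene's direction, with matches to any of these motifs in capitals (ATTGG is CCAAT and TTCAAA is TTTGAA read from the other strand). Cdk1 is shown because it holds all 3 kinds of motif, Top2a for its row of CCAAT boxes, Cdc20 as a mitotic gene that differed between the knockouts, and Mcm6 and Mcm3 because these subunits of one helicase diverged in ABCG1KO.
Cdk1, chr10:69352913-69353062, minus strand: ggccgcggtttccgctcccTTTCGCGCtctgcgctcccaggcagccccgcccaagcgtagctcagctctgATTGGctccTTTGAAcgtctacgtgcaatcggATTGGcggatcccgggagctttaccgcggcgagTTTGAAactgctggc
Top2a, chr11:99024190-99024339, minus strand: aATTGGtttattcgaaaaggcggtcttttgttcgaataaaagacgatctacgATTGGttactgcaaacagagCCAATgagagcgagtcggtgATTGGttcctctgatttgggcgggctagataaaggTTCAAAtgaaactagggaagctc
Cdc20, chr4:118437344-118437493, minus strand: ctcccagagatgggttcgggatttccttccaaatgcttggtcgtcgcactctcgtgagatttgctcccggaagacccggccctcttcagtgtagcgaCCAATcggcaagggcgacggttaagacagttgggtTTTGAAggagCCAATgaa
Mcm6, chr1:128359706-128359855, minus strand: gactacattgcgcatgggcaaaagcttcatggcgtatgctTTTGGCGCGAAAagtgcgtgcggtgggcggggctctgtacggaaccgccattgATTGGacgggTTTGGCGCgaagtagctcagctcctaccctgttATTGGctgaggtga
Mcm3, chr1:20820313-20820462, minus strand: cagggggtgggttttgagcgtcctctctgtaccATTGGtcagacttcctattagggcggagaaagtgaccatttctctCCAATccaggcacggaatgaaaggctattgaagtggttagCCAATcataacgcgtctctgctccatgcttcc
In this window Cdk1 had 1 E2F site, 2 CHR elements and 2 CCAAT boxes. Top2a had 4 CCAAT boxes and 1 CHR element, and Cdc20 had 2 CCAAT boxes and 1 CHR element. Mcm6 had 3 E2F matches, of which the first 2 overlap on opposite strands, and 2 CCAAT boxes. Mcm3 had 3 CCAAT boxes and no match to the E2F letters searched.

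The libraries held 29567615 to 41888516 counts in genes. Both ABCG1KO libraries stood apart from the other 6: reads that aligned to several places made up 6.93% and 6.74% of reads in ABCG1KO 1 and 2 against 2.65% to 3.01% elsewhere, and Gapdh, a gene with 24.7% of its transcript sequence shared with other loci, was at 4.99 and 2.05 CPM against 731 to 1705 CPM. CPM are counts relative to 1000000 counts of the library, whose size was scaled with TMM factors. The part that shared sequence had in the low Gapdh level was not tested. The share of a member's transcript sequence found in other loci is given for several genes the results turn on where it exceeded 1%. A gene without a printed share may also have shared sequence. How the ABCG1KO libraries were made or processed cannot be told apart from genotype wherever they are compared with another group. Abcg1 fell in ABCG1KO, from 345 to 405 CPM in WT to 60.4 and 73.4 CPM (log2 fold change -2.52, standard error (SE) 0.372, edgeR adjusted p 0.00414). Epn1 was at 191 to 230 CPM in WT and at 155 to 183 CPM in the libraries labelled LysM-DKO (log2 fold change -0.30, SE 0.134, edgeR adjusted p 0.430). Epn2, the other epsin gene examined, was at 4.97 to 8.86 CPM in WT and at 5.67 to 13.2 CPM in LysM-DKO (log2 fold change 0.20, SE 0.362, edgeR adjusted p 0.852), so neither epsin gene passed the test in the libraries labelled LysM-DKO. The female transcript Xist ranged from 79.1 to 200 CPM in WT, while LysM-DKO 2 held 265 CPM and LysM-DKO 3 held 254 CPM. Xist was at 0.0485 CPM in LysM-DKO 1 and 0 in both ABCG1KO libraries. Levels of the male transcript Ddx3y went the opposite way, with 81.6 CPM for LysM-DKO 1 and 94.8 and 92.6 CPM for ABCG1KO 1 and 2. Every other library stayed at or below 0.049 CPM. An effect of sex therefore cannot be told apart from one of genotype where ABCG1KO is compared with WT. Where LysM-DKO is compared with WT or with ABCG1KO, sex is also partly mixed with genotype, and its part was not tested. The 8 macrophage markers had counts in every library, and their summed level was 18043 to 21157 CPM in WT, 10992 to 13064 CPM in LysM-DKO and 22244 and 18391 CPM in ABCG1KO, so that LysM-DKO lay below WT. Most of this sum was Lyz2, at 13004 to 15710 CPM in WT and 6177 to 8105 CPM in LysM-DKO, without overlap (log2 fold change -1.09, SE 0.202, edgeR adjusted p 0.173). Without Lyz2, itself the gene of the LysM promoter, their summed level was 5039 to 5540 CPM in WT and 4815 to 5381 CPM in LysM-DKO, against 7832 and 7154 CPM in ABCG1KO.

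The 45 transcripts were scarce, with the exception of Pcna. Per length, as CPM divided by the exon length in kilobases (RPKM), the mean level in WT was highest for Pcna (134 RPKM), the sliding clamp, with 19.1% of its sequence shared. Cdt1 followed at 15.9 RPKM, then E2f1 at 14.02, Mcm6 at 11.4 and Mcm3 at 11.2, and the large kinetochore protein gene Cenpf was lowest at 0.216 RPKM. The lowest count of any member was 15, for Mybl2 and Chek1 in LysM-DKO 1, so no member fell to the limit of 3 counts that a count of 0 allows. The summed level of the 45 genes was 1384, 985 and 678 CPM in WT 1, 2 and 3. It was 673, 685 and 1144 CPM in LysM-DKO 1, 2 and 3, and 664 and 1232 CPM in ABCG1KO 1 and 2. The groups overlapped throughout in this sum.

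**Figure D1:**
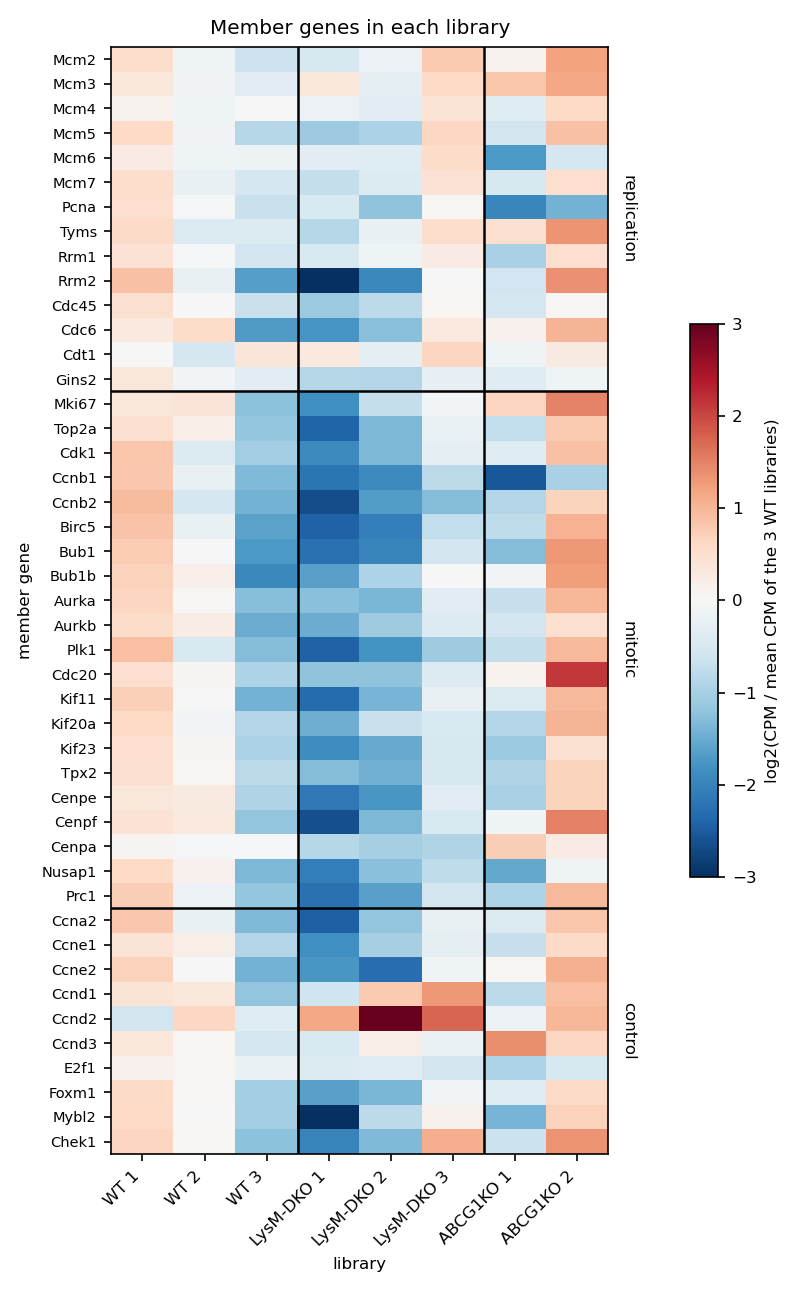
Level of each of the 45 members (rows, by class) in each of the 8 libraries (columns), as log2 of CPM over the mean CPM of the 3 WT libraries; colours stop at -3 and 3. Most rows are red in WT 1 and ABCG1KO 2, and most are blue in WT 3, LysM-DKO 1, LysM-DKO 2 and ABCG1KO 1. Single rows such as Cenpa, Ccnd2, Mcm6 and Pcna break the column pattern.

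The strongest pattern was between libraries of the same group, where the members rose and fell together. Of the 21 mitotic genes, 20 were highest of the WT libraries in WT 1 and 20 were lowest in WT 3, where 32.7% and 33.2% of all tested genes were. In LysM-DKO, 20 of 21 were highest in replicate 3 and 17 were lowest in replicate 1. In ABCG1KO, 20 of 21 were higher in replicate 2, as were 48.2% of all genes. The replication genes had the same order, with 12 of 14 highest in WT 1, 14 of 14 highest in LysM-DKO 3 and 14 of 14 higher in ABCG1KO 2. Members of a class are therefore not separate observations of a genotype.

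Mitotic genes spread more than replication genes in every group. The ratio of the highest to the lowest library had a median over the 21 mitotic genes of 3.75 for WT, 2.64 for LysM-DKO and 2.96 for ABCG1KO. Over the 14 replication genes it was 2.06, 2.23 and 1.91, and over all tested genes 1.39, 1.38 and 1.29. Over the 8 libraries, the ratio ran from 1.96 for Mcm4, a helicase subunit, to 22.3 for Rrm2, the ribonucleotide reductase subunit that is made in S phase. Rrm2 was not among the genes with under 1% of shared sequence. Rrm2 was at 25.7, 11.98 and 4.45 CPM in WT 1, 2 and 3, at 1.62, 3.68 and 14.1 CPM in LysM-DKO, while ABCG1KO 1 and 2 held 9.44 and 36.3 CPM. Its partner subunit gene Rrm1 was at 75.1, 54.0 and 38.2 CPM in WT, at 40.4, 51.2 and 65.9 CPM in LysM-DKO, while ABCG1KO 1 and 2 held 28.4 and 79.1 CPM. The pair thus moved in the same order within each group, but Rrm2 moved by a far larger factor, and the ratio of Rrm2 to Rrm1 CPM ran from 0.0402 in LysM-DKO 1 to 0.459 in ABCG1KO 2.

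Replication and mitotic genes parted in LysM-DKO. Relative to the WT mean, the median log2 level of the replication genes was 0.45, -0.12 and -0.54 in WT 1, 2 and 3, and -0.60, -0.38 and 0.43 in LysM-DKO 1, 2 and 3. That of the mitotic genes was 0.61, 0.04 and -1.24 in WT and -2.06, -1.37 and -0.47 in LysM-DKO. The replication medians of the groups covered the same range, and the mitotic medians overlapped only through WT 3, which lay between LysM-DKO 2 and 3. Within a library, the mitotic median lay above the replication median by 0.16 in WT 1 and in WT 2 and below it in WT 3 (-0.70). In LysM-DKO it lay below in all 3 libraries (-1.47, -0.99 and -0.89), each further below than in any WT library. In ABCG1KO the difference was -0.32 and 0.41, within the range of WT from -0.70 to 0.16 in replicate 1 and above it in replicate 2. These medians are descriptions without a test.

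**Figure D2:**
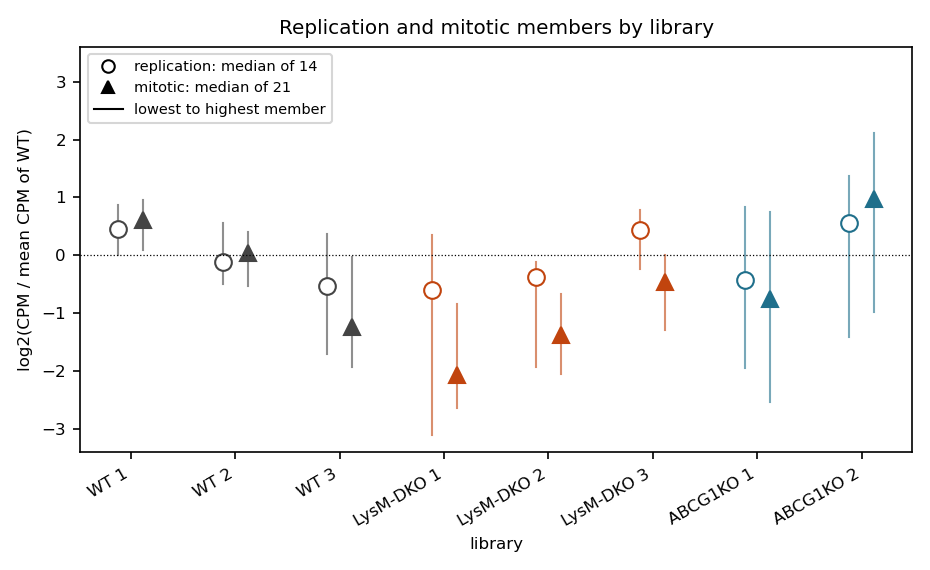
Median of the 14 replication genes (open circles) and of the 21 mitotic genes (filled triangles) in each library, on the y axis as log2 of CPM over the WT mean, with lines from the lowest to the highest member. In all 3 LysM-DKO libraries the triangle lies well below the circle, by 0.89 to 1.47; it also lies below in WT 3, by 0.70, and slightly above in WT 1 and 2.

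In LysM-DKO against WT, no member was called, although every mitotic gene had a lower estimate. A gene is called here when its Benjamini-Hochberg adjusted p from edgeR's quasi-likelihood test over all 13821 genes is under 0.05. Few genes of any kind were called in this comparison, 3 higher (0.0217%) and 2 lower (0.0145%). At an edgeR unadjusted p under 0.05 stood 1 of 45 members with a higher and 5 of 45 with a lower level. Of all 13821 genes, 835 stood there with a higher and 776 with a lower level. DESeq2 called 2 members, Ccnd2 as higher (DESeq2 adjusted p 0.00254) and Cenpa as lower (DESeq2 adjusted p 0.000585). DESeq2 called more genes of any kind, 107 higher (0.785%) and 172 lower (1.26%) of 13639. The estimate was below 0 for 21 of 21 mitotic genes, 9 of 14 replication genes and 8 of 10 control genes, against 47.5% of all genes. The median log2 fold change was -1.06 for mitotic, -0.11 for replication and -0.59 for control genes, and 0.02 for all genes. The groups did not overlap for 1 member with higher levels (Ccnd2) and 2 with lower levels (Cenpa and E2f1), where 11.0% and 9.98% of all genes were so separated.

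The mitotic median kept its sign whichever library was left out, from -1.68 without LysM-DKO 3 to -0.72 without WT 1, with 21 of 21 estimates below 0 each time. The replication median did not: it was -0.52 without LysM-DKO 3, 0.18 without WT 1 and 0.05 without LysM-DKO 1, and 0.05 when libraries were scaled by their size alone. That scaling moved the median of all genes from 0.02 to 0.17, and it left 21 of 21 mitotic estimates below 0 with a median of -0.89. Without LysM-DKO 1, the library of its group low in Xist and high in Ddx3y, the mitotic median was -0.88.

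Cenpa, which encodes the histone H3 variant that marks centromeres (chr5:30666777-30674830, plus strand, GRCm38), had the most even levels of all 45 members within WT and within LysM-DKO. It was at 25.6, 23.2 and 23.4 CPM in WT 1, 2 and 3, at 13.3, 12.1 and 12.8 CPM in LysM-DKO, while ABCG1KO 1 and 2 held 40.2 and 28.4 CPM. The 3 groups did not overlap, with LysM-DKO lowest and ABCG1KO highest. The LysM-DKO mean, 12.8 ± 0.595 CPM (SD, n = 3), compares with 24.0 ± 1.31 CPM (n = 3) in WT, an estimated 53.0% of the WT level. The log2 fold change was -0.91 (SE 0.160), with an edgeR unadjusted p of 0.000377 and an adjusted p of 0.160, which did not pass the threshold. Cenpa did not share the library order of the other mitotic genes: it was flat across WT, where their median spread was 3.75, and higher in ABCG1KO 1 than in ABCG1KO 2. Of its sequence, 1.54% was shared with other loci.

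The genes of the mitotic entry kinase had larger but far less even falls in the estimate. Ccnb2, a cyclin partner of CDK1, was at 14.1, 5.05 and 2.74 CPM in WT and at 1.16, 2.27 and 2.97 CPM in LysM-DKO. Its estimate was the lowest of the members (log2 fold change -1.77, SE 0.688, edgeR adjusted p 0.398), and without WT 1 it was -0.87. Ccnb1, the other B-type cyclin, was at 14.95, 7.29 and 3.44 CPM in WT and at 1.87, 2.27 and 4.90 CPM in LysM-DKO, with 23.4% of its sequence shared. Cdk1 itself was at 20.8, 8.78 and 5.67 CPM in WT and at 3.15, 4.61 and 9.57 CPM in LysM-DKO. For all 3 genes the highest LysM-DKO library, replicate 3, exceeded the lowest WT library, replicate 3, so the groups overlapped. Plk1, the kinase that drives centrosome maturation and spindle assembly, was at 15.1, 5.88 and 3.29 CPM in WT and at 1.502, 2.34 and 3.85 CPM in LysM-DKO, with 6.56% of its sequence shared. On the log2 scale it differed by -1.65 (SE 0.669, edgeR adjusted p 0.409), and by -0.84 without WT 1.

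Genes of the chromosome and spindle machinery ran in parallel. Top2a, the topoisomerase that untangles replicated DNA, was at 39.3, 32.1 and 12.6 CPM in WT and at 5.28, 11.1 and 24.4 CPM in LysM-DKO. Mki67, which coats mitotic chromosomes and is the usual stain for cycling cells, was at 26.5, 27.7 and 8.93 CPM in WT and at 5.91, 12.7 and 19.8 CPM in LysM-DKO. The spindle assembly factor gene Tpx2 was at 27.1, 20.5 and 11.1 CPM in WT and at 7.97, 7.24 and 14.1 CPM in LysM-DKO. Top2a and Tpx2 overlapped with WT only through LysM-DKO 3, and Mki67 through LysM-DKO 2 and 3. The smallest mitotic estimate was that of the checkpoint kinase gene Bub1b (-0.70, SE 0.690), which ranged from -1.24 (LysM-DKO 3 left out) to -0.16 (WT 1 left out), and the other members of the class lay between it and Ccnb2: the checkpoint gene Bub1, the Aurora kinase genes Aurka and Aurkb with their partner Birc5, the kinesin genes Kif11, Kif20a and Kif23, the kinetochore genes Cenpe and Cenpf, the anaphase activator Cdc20 and the spindle genes Nusap1 and Prc1.

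The replication genes had estimates on both sides of 0 in LysM-DKO. The largest rise in the estimate was that of Cdt1, the licensing factor (0.27, SE 0.280), followed by Mcm3 (0.26, SE 0.254) and Mcm2 (0.15, SE 0.438). The largest fall was that of Rrm2 (-1.12, SE 0.926), which ranged from -2.40 (LysM-DKO 3 left out) to -0.35 (WT 1 left out), and the adjusted p closest to the threshold was that of Gins2, a subunit of the GINS complex (-0.63, SE 0.276, edgeR adjusted p 0.428). Gins2 measured 11.6, 8.70 and 7.35 CPM in WT against 5.06, 4.97 and 7.80 CPM in LysM-DKO, so the groups overlapped through LysM-DKO 3. Exons of Gse1, on the opposite strand, cover 67.3% of Gins2, and since the strand setting of the counting is not stated their reads cannot be told apart. The helicase genes Mcm4 and Mcm6 had estimates of 0.01 (SE 0.279) and 0.03 (SE 0.350).

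Among the 10 control genes, the D-type cyclin genes Ccnd2 and Ccnd1 had estimates above 0 in LysM-DKO and the other 8 had estimates below 0. Ccnd2, a partner of CDK4 and CDK6 that couples growth signals to entry into the cycle, was at 5.39, 12.2 and 6.16 CPM in WT and at 17.8, 65.6 and 26.8 CPM in LysM-DKO, so that every LysM-DKO library lay above every WT library. The means were 7.92 ± 3.73 and 36.7 ± 25.4 CPM (SD, n = 3 each). The log2 fold change was 2.21 (SE 0.578), an estimated 4.64-fold higher level, with an edgeR adjusted p of 0.335 that did not pass the threshold. The estimate ranged from 1.48 (LysM-DKO 2 left out) to 2.64 (WT 2 left out). Ccnd1 was at 45.4, 42.6 and 15.2 CPM in WT and at 22.8, 59.7 and 85.4 CPM in LysM-DKO, with overlap (0.70, SE 0.630), and Ccnd3 was at 28.02, 23.1 and 15.7 CPM against 16.3, 25.4 and 19.4 CPM (-0.13, SE 0.285).

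E2f1, the transcription factor that opens S phase, was at 48.1, 45.7 and 38.8 CPM in WT and at 33.3, 34.3 and 29.99 CPM in LysM-DKO, without overlap (log2 fold change -0.44, SE 0.155, edgeR adjusted p 0.362). The later cyclin genes followed the mitotic pattern, with Ccne2 at 3.43, 2.15 and 0.802 CPM in WT and at 0.630, 0.439 and 1.95 CPM in LysM-DKO (-1.08, SE 0.729). That estimate ranged from -1.98 (LysM-DKO 3 left out) to -0.55 (WT 1 left out). Ccna2, a cyclin of S and G2 phase, was at 22.0, 10.9 and 5.05 CPM in WT and at 2.33, 5.58 and 10.9 CPM in LysM-DKO (-1.01, SE 0.687). Foxm1, a driver of the mitotic genes, was at 11.5, 7.95 and 3.86 CPM against 2.496, 3.02 and 7.32 CPM (-0.86, SE 0.537). These 3 genes were highest in WT 1 and LysM-DKO 3, as the mitotic genes were.

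**Figure D3:**
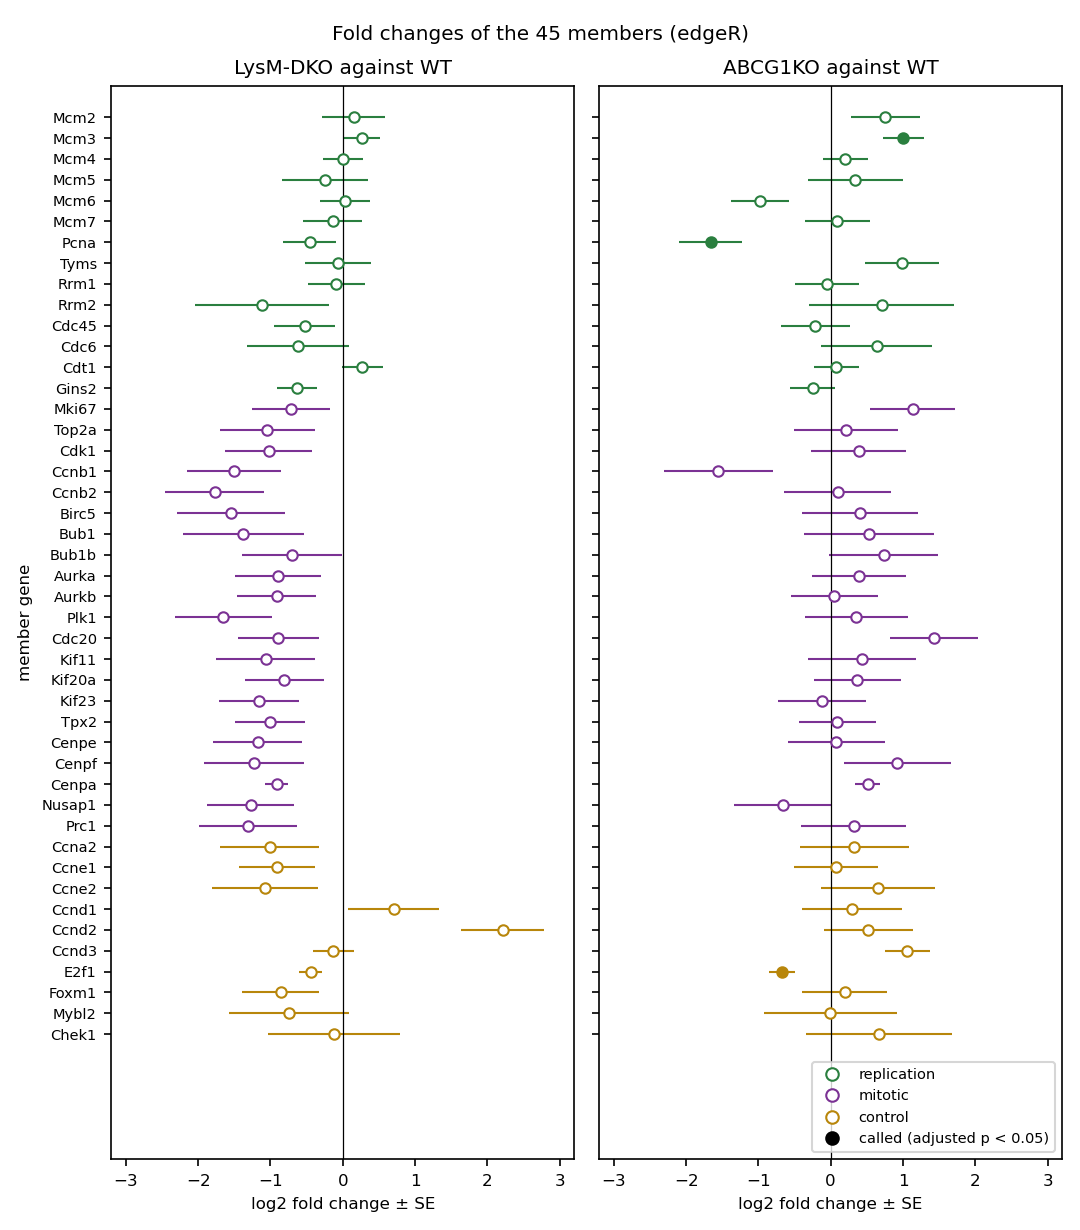
Log2 fold change of each member with its standard error, for LysM-DKO against WT (left) and ABCG1KO against WT (right); filled points are called. On the left all 21 mitotic genes lie below 0 and none is called, and on the right only Mcm3, Pcna and E2f1 are.

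Genes of the same processes outside the list were also followed in LysM-DKO. These lists were chosen with earlier results of these data known and rest on the same libraries, so they are not separate evidence. Of 42 further mitotic genes tested, 42 had an estimate below 0 (median -0.68) and 0 were called by edgeR, with 7 at an unadjusted p under 0.05. Of all 13821 genes, 47.5% had an estimate below 0, 776 were lower at that unadjusted p and 0.0145% were called lower. Of 45 further replication genes, 33 had an estimate below 0 (median -0.16), and of 22 further control genes 11 did (median -0.03). In that last list 1 gene was called, Cdkn1c, which encodes the CDK inhibitor p57 (297 to 460 CPM in WT and 84.6 to 118 CPM in LysM-DKO, with 30.7% of its exons overlapped by Gm44732, log2 fold change -1.91, SE 0.199, edgeR adjusted p 0.0430). The call did not survive the omission of WT 1, WT 2, ABCG1KO 2 or any LysM-DKO library, with estimates from -2.07 to -1.74. The inhibitor genes Cdkn1a and Cdkn1b had log2 fold changes of 0.14 (SE 0.182) and -0.22 (SE 0.216).

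In ABCG1KO against WT, 3 members changed: Mcm3 rose, and Pcna and E2f1 fell. That is 1 of 45 higher and 2 of 45 lower, where 7.21% and 8.83% of all genes were called higher and lower, so the share called among the members was no larger than the background. The groups did not overlap for 4 members with higher levels (Mcm3, Mki67, Cenpa and Ccnd3) and 3 with lower levels (Mcm6, Pcna and E2f1), against 23.9% and 24.2% of all genes. The estimate was above 0 for 18 of 21 mitotic, 9 of 14 replication and 8 of 10 control genes, while 49.1% of all genes were below 0. The medians were 0.37, 0.15 and 0.31, and 0.01 for all genes.

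These medians followed single libraries. For the mitotic genes the median was -0.75 without ABCG1KO 2 and 0.95 without ABCG1KO 1, and -0.01 without WT 3, with 3, 19 and 10 of 21 estimates above 0. For the replication genes it was -0.44 without ABCG1KO 2 and 0.55 without ABCG1KO 1. The direction of both classes in ABCG1KO thus rested on ABCG1KO 2, and that of the mitotic genes also on WT 3. When libraries were scaled by size alone, the median of all genes moved from 0.01 to 0.25, and 2074 genes were called higher and 856 lower, in place of 996 and 1220.

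The helicase subunits parted in ABCG1KO. Mcm3 (chr1:20802968-20820312, minus strand, GRCm38) was at 53.6, 39.2 and 33.7 CPM in WT 1, 2 and 3, at 53.5, 34.4 and 63.9 CPM in LysM-DKO, while ABCG1KO 1 and 2 held 75.4 and 93.7 CPM. Both ABCG1KO libraries lay above the other 6, and the rise against WT was 2.01-fold (log2 fold change 1.00, SE 0.280, edgeR adjusted p 0.0450). The call did not survive the omission of WT 2, WT 3, LysM-DKO 1 or either ABCG1KO library, with estimates from 0.83 to 1.22, nor RLE size factors (edgeR adjusted p 0.0508). Mcm6 (chr1:128331590-128359664, minus strand, GRCm38) was at 62.8, 48.6 and 47.6 CPM in WT, at 42.9, 41.3 and 78.3 CPM in LysM-DKO, while ABCG1KO 1 and 2 held 16.2 and 37.6 CPM. Both ABCG1KO libraries lay below the other 6, but the fall in the estimate was not called (log2 fold change -0.98, SE 0.404, edgeR adjusted p 0.141). It was -1.72 and called (edgeR adjusted p 0.0394) without ABCG1KO 2, and -0.51 without ABCG1KO 1. Neither gene shared 1% of its sequence with other loci.

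Per length, Mcm3 and Mcm6 were near parity outside ABCG1KO. The ratio of Mcm3 to Mcm6 RPKM was 1.06, 1.00 and 0.880 in WT 1, 2 and 3 and 1.55, 1.03 and 1.01 in LysM-DKO, but 5.80 and 3.10 in ABCG1KO 1 and 2. Of the summed RPKM of Mcm2 to Mcm7, Mcm6 held 23.6% to 28.4% in WT and 23.9% to 26.2% in LysM-DKO, and 8.56% and 11.5% in ABCG1KO. Mcm3 held 24.95% to 25.7% in WT and 49.6% and 35.7% in ABCG1KO, with 37.0% in LysM-DKO 1 as the highest value elsewhere. The other subunit genes were not called in ABCG1KO, with log2 fold changes of 0.76 (SE 0.483) for Mcm2, 0.20 (SE 0.310) for Mcm4, 0.34 (SE 0.658) for Mcm5 and 0.09 (SE 0.451) for Mcm7. The subunits form one ring in equal number, whereas these values are transcript levels.

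Pcna (chr2:132249162-132253314, minus strand, GRCm38) was at 453, 306 and 203 CPM in WT, at 234, 140 and 326 CPM in LysM-DKO, while ABCG1KO 1 and 2 held 82.9 and 120 CPM. Both ABCG1KO libraries were the lowest of the 8, and the fall against WT was to an estimated 31.6% (log2 fold change -1.66, SE 0.437, edgeR adjusted p 0.0381). The call did not survive the omission of WT 1, WT 2, LysM-DKO 1 or either ABCG1KO library, with estimates from -1.96 to -1.33. With 19.1% of its sequence shared, Pcna is among the members on which the counting of such reads bears most, and the part this had in its fall was not tested. E2f1 was at 23.4 and 31.9 CPM in ABCG1KO, below the 38.8 to 48.1 CPM of WT (log2 fold change -0.68, SE 0.177, edgeR adjusted p 0.0366). Its call did not survive the omission of WT 1, WT 2, LysM-DKO 1, LysM-DKO 2 or ABCG1KO 1, with estimates from -0.92 to -0.48, nor scaling by library size alone (-0.44) or a fit of only these 2 groups (-0.68), and 1.75% of its sequence was shared. Neither Pcna nor E2f1 was tested when the fit was limited to genes with under 1% of shared sequence, and Mcm3, which was, had an adjusted p of 0.0637 there (edgeR).

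Several mitotic and cyclin genes were higher in ABCG1KO without passing the threshold. Mki67 was at 32.9 and 59.3 CPM, above the 8.93 to 27.7 CPM of WT (log2 fold change 1.13, SE 0.592, edgeR adjusted p 0.235). Cdc20, which activates the anaphase-promoting complex, was at 6.08 and 24.5 CPM against 8.06, 5.99 and 2.98 CPM in WT, so only ABCG1KO 2 stood clear (1.43, SE 0.605, adjusted p 0.147 by edgeR). Ccnd3, the third of the D-type cyclin genes, was at 58.8 and 34.1 CPM, above the 15.7 to 28.02 CPM of WT (1.06, SE 0.313, edgeR adjusted p 0.0541). Unlike the mitotic genes, Ccnd3 and Cenpa were higher in ABCG1KO 1 than in ABCG1KO 2. Ccnb1 had the lowest mitotic estimate, at 1.47 and 4.34 CPM against 3.44 to 14.95 CPM in WT (-1.55, SE 0.750, edgeR adjusted p 0.198), and 23.4% of its sequence was shared, the highest share of the 45.

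Outside the list, 6 further genes were called in ABCG1KO against WT, where 7.21% of all genes were called higher and 8.83% lower. The clamp loader gene Rfc2 fell (-0.54, edgeR adjusted p 0.0442) as the only one of 45 further replication genes to be called. This call was near the threshold: it was lost whichever of the 8 libraries was left out (-0.67 to -0.43) and with RLE size factors, library size alone, no count filter or only the 2 groups in the fit. The separase gene Espl1 rose (1.34, edgeR adjusted p 0.0407) as the only one of 42 further mitotic genes, at 28.8 and 13.8 CPM against 6.34 to 10.3 CPM in WT. Espl1 was at 0.71 and not called without ABCG1KO 1 (edgeR adjusted p 0.292), and its call was also lost without any WT library, without LysM-DKO 2, with only the 2 groups in the fit and among genes with under 1% of shared sequence.

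Of 22 further control genes, E2f3 (0.57) and Fzr1 (0.68) rose, and Rbl1 (-0.65, edgeR adjusted p 0.0173), a pocket protein gene of the retinoblastoma family, and Cdkn1c (-4.74, edgeR adjusted p 3.11e-05) fell. E2f3 stayed called when ABCG1KO 2 was left out and lost its call when any other library was, and Fzr1 lost its call without any WT library, LysM-DKO 1 or ABCG1KO 1 (0.43 for E2f3 and 0.49 for Fzr1 without ABCG1KO 1). Neither was called with only the 2 groups in the fit or among genes with under 1% of shared sequence, nor was E2f3 without a count filter. Rbl1 lost its call without WT 2 or either ABCG1KO library, with library size alone and with only the 2 groups, while its estimate stayed between -0.69 and -0.63 when a library was left out. Cdkn1c kept its call in every alternative run for this comparison. Cdkn1c was at 297 to 460 CPM in WT and at 13.2 and 14.9 CPM in ABCG1KO, and part of its exons is overlapped by Gm44732. None of the alternatives separates genotype from the way the ABCG1KO libraries were made or processed.

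**Figure D4:**
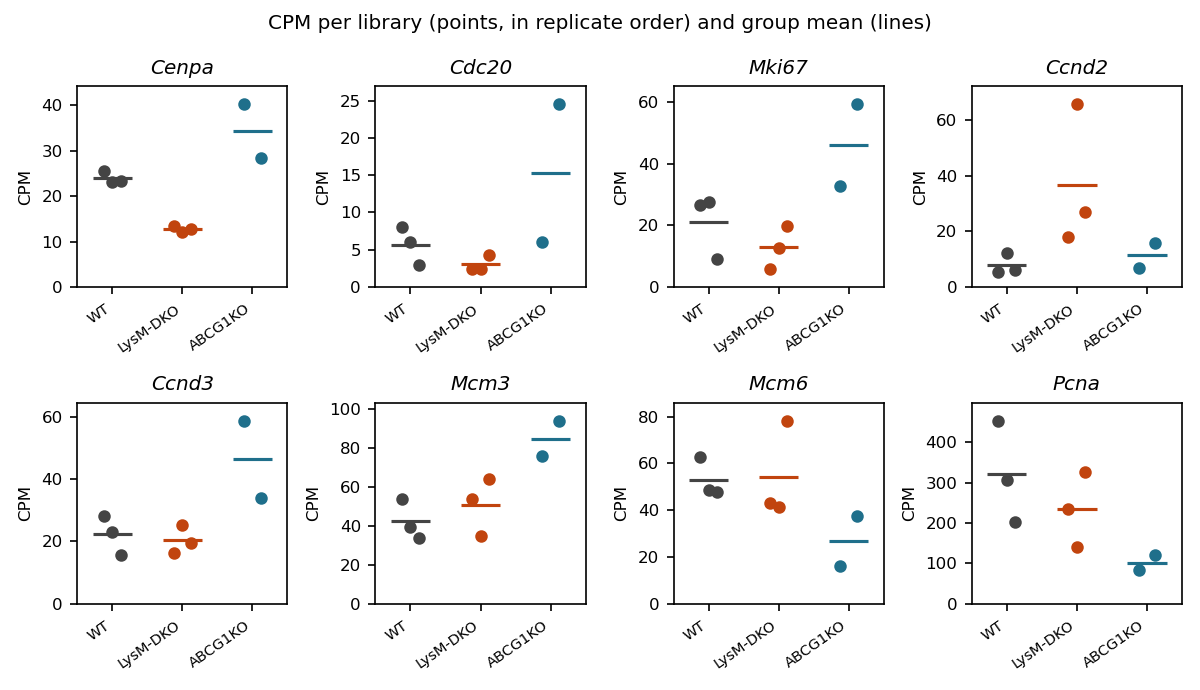
CPM of 8 members in each library (points, in replicate order within a group) with the mean of each group (lines); each y axis starts at 0. Cenpa separates the 3 groups, Mcm3 is highest and Mcm6 and Pcna lowest in the ABCG1KO libraries, and Ccnd2 is highest in LysM-DKO.

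The 2 knockouts were set against each other directly, in a comparison of their own levels. In LysM-DKO against ABCG1KO, 3 members were called lower and 0 higher, where 5.64% and 7.76% of all genes were. Cenpa was lower in LysM-DKO, at 12.1 to 13.3 CPM against 28.4 and 40.2 CPM (log2 fold change -1.43, SE 0.174, edgeR adjusted p 0.00185). It stayed called in every alternative fit in which it was tested, with estimates from -1.65 to -1.16 when a library was left out. Cdc20 was lower (-2.32, SE 0.613, edgeR adjusted p 0.0427), at 2.46 to 4.25 CPM against 6.08 and 24.5 CPM, with 10.4% of its sequence shared. Ccnd3 was lower (-1.19, SE 0.313, edgeR adjusted p 0.0419), at 16.3 to 25.4 CPM against 34.1 and 58.8 CPM, with 2.08% of its sequence shared. Cdc20 lost its call without WT 1, WT 2, ABCG1KO 2 or any LysM-DKO library (-3.01 to -0.99), and Ccnd3 lost it without WT 2, ABCG1KO 1 or any LysM-DKO library (-1.52 to -0.76). In a fit of these 2 groups alone neither was called (edgeR adjusted p 0.0782 for Cdc20 and 0.0606 for Ccnd3).

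The estimate was below 0 for 20 of 21 mitotic, 11 of 14 replication and 7 of 10 control genes, against 48.3% of all genes, with medians of -1.43, -0.35 and -0.89 and 0.03 for all genes. The groups did not overlap for 9 members with lower levels in LysM-DKO, where 22.6% of all genes were so separated. They were Mki67, Ccnb2, Plk1, Cdc20, Cenpf, Cenpa, Ccne2, Ccnd3 and Mcm3, 6 of them mitotic. Mki67 came nearest to the threshold of those not called, at 5.91 to 19.8 CPM against 32.9 and 59.3 CPM (-1.85, SE 0.595, edgeR adjusted p 0.0806). In the other direction 3 members did not overlap, Mcm6 (1.01, SE 0.404), Pcna (1.204, SE 0.429) and Ccnd2 (1.69, SE 0.656), against 25.6% of all genes. Without ABCG1KO 2 the mitotic median was -0.37 and without LysM-DKO 3 it was -1.99, and the replication median was 0.18 without ABCG1KO 2. Of 42 further mitotic genes 2 were called, Espl1 (-1.59) and the condensin gene Smc4 (-0.64), both lower in LysM-DKO. Of 22 further control genes 2 were called, Cdkn1c (2.83, edgeR adjusted p 0.000283) and Rbl1 (0.75, edgeR adjusted p 0.0115), both higher in LysM-DKO. Of all genes, 5.64% were called lower and 7.76% higher in this comparison. Espl1 was -0.98 and not called without ABCG1KO 1, nor was it called without LysM-DKO 1 or 2. Smc4 stayed called when WT 1 was left out and lost its call when any other library was, and Rbl1 lost its call without LysM-DKO 1 or ABCG1KO 1. With only these 2 groups in the fit Espl1 and Smc4 were not called, nor was Smc4 among genes with under 1% of shared sequence, and Cdkn1c was called in every alternative run for this comparison. Scaling by library size alone gave 877 genes called higher and 1018 lower in place of 1073 and 780, and the same 3 members.

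Markers of other cell types differed between these libraries, and in bulk RNA fewer cycling cells and less RNA per cycling cell cannot be told apart. The summed level of 6 fibroblast markers was 755, 816 and 913 CPM in WT 1, 2 and 3 and 678, 955 and 1663 CPM in LysM-DKO 1, 2 and 3, while ABCG1KO 1 and 2 held 160 and 1185 CPM, and none of the 6 was at 0 in any library. This sum had the order of the mitotic median in LysM-DKO and ABCG1KO and the reverse order in WT. Its order in WT followed Col1a1, at 206, 199 and 453 CPM in WT 1, 2 and 3. Col3a1, Dcn and Pdgfra were lowest in WT 3, as most mitotic genes were, while Lum was highest there. Col1a2 differed little, at 355, 393 and 357 CPM. The 5 mesothelial markers summed to 38.6, 43.8 and 7.61 CPM in WT, 5.38, 56.6 and 58.0 CPM in LysM-DKO and 6.15 and 23.1 CPM in ABCG1KO, with their lowest libraries those where the mitotic genes were lowest. The 5 monocyte markers summed to 2.30 to 13.999 CPM in WT, 3.83 to 6.40 CPM in LysM-DKO and 159 and 44.0 CPM in ABCG1KO, and the 6 mast cell markers to at most 3.15 CPM outside ABCG1KO and to 47.2 and 7.95 CPM within it. Of the 5 granulocyte progenitor markers, whose cells divide fast, Ms4a3 was at 0 in every library and Mpo at 0 in WT and LysM-DKO, and their sum was at most 1.16 CPM except in ABCG1KO 1 (38.5 CPM, of which Prtn3 made up 38.0). The 6 erythroid markers summed to at most 0.293 CPM in any library. The part of these cells in the members' levels was not tested.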

How the data were processed

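Each deposited file held raw counts per gene symbol for 1 library, made by the authors with htseq-count as its 5 closing counter lines show. Per the submitters' processing notes, STAR 2.7.9a, TopHat, HTSeq 0.11.2, DESeq2 1.30.1 and limma were used with mm10; which aligner made which library and the strand setting are not given in the sources used here. The counter lines were left out of all totals.

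From the counts, edgeR 4.0.16 (R 4.3.3) fitted all 8 libraries by the robust quasi-likelihood method with TMM factors, after filterByExpr by group left 13821 genes. Each pair of groups was tested by the quasi-likelihood F test with Benjamini-Hochberg adjustment over all these genes, and called under 0.05. The fit, tested on simulated data, had 5 residual degrees of freedom and 3.33 prior ones at the median. CPM used TMM-scaled library sizes, and RPKM divided CPM by the union of exons in GENCODE M21, which matched 96.3% of tested genes. Shared sequence is the share of a gene's 50-base words that occur in transcripts of other loci. Promoters are the first RefSeq entry of each gene. A count of 0 allows up to 3 counts, and this limit covers counting error only. Within a group, pairs of libraries differed by far more than sampling noise (chi-square per degree of freedom 92.7 to 168.6), so none was taken for a repeat deposit of another; this does not show that they came from separate animals, and all 8 were used as replicates because the labels give them as separate samples. The comparisons with WT share its libraries, so their values are given side by side only.

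The members, classes, further lists and motifs were chosen with earlier results of these data known. All 45 members could be named, and of other genes the label checks, Gapdh, the CDK inhibitors and at most 4 called genes per further list and comparison. Alternatives were RLE size factors, library size only, no count filter or at least 10 counts in every library, DESeq2 1.42.0, only the 2 groups compared, each library left out, the replicate number as a block, Ccna2 counted as mitotic and genes with under 1% shared sequence.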

Additional observations from a re-analysis of the deposited data

How the results depend on the processing

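Of the members' calls against WT in ABCG1KO (1 higher and 2 lower of 2216 genes), the counts were 0 higher with RLE size factors, 3 higher and 1 lower with library size only, 2 higher with at least 10 counts in every library, 2 higher with DESeq2, 1 lower with only the 2 groups compared, and 0 and 0 among genes with under 1% shared sequence (1181 genes called), a fit chosen after seeing the data that does not hold Pcna or E2f1. Leaving out 1 library gave 0 to 2 higher and 0 to 2 lower (853 to 2090 genes), with medians of -0.44 to 0.55 for replication and -0.75 to 0.95 for mitotic genes. In LysM-DKO against WT, where 5 genes were called, the counts were 3 genes with at least 10 counts, 279 with DESeq2 (1 member higher, 1 lower), 8 with only the 2 groups and 0 to 8 without 1 library, and the mitotic genes were all below 0 in every alternative run. In LysM-DKO against ABCG1KO (0 higher and 3 lower members of 1853 genes), DESeq2 called 2952 genes, with 2 members higher and 8 lower, the 2 groups alone 948 with 1 lower, and the genes under 1% shared sequence 917 with 0 lower. That last fit does not hold Cenpa, Cdc20 or Ccnd3, so it could not call these 3 members. Leaving out 1 library gave 561 to 1960 genes, 0 to 1 members higher and 1 to 3 lower, and mitotic medians of -1.99 to -0.37. Ccnb1, at 0.05 in that comparison, was -0.0345 with library size only and -0.54 to 1.03 without 1 library.

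Whether the replicate numbers pair the samples is not known. The deviations of same-numbered WT and LysM-DKO libraries correlated at 0.04, 0.43 and -0.01, and not every library correlated best with its own number. Reads outside genes made up 4.265%, 5.725% and 5.876% in WT 1, 2 and 3. In LysM-DKO 1, 2 and 3 they made up 4.332%, 5.929% and 6.074%, and in ABCG1KO 1 and 2 13.83% and 10.18%. These values do not decide whether same-numbered libraries were handled together. With the number as a replicate block, 0 genes were called in LysM-DKO against WT, 1456 in ABCG1KO against WT (0 members higher, and E2f1 lower) and 1024 in LysM-DKO against ABCG1KO (1 member higher, 1 lower). Under the block Mcm3 and Pcna lost their calls in ABCG1KO against WT (edgeR adjusted p 0.0881 and 0.0962). Cdkn1c lost its call in LysM-DKO against WT (edgeR adjusted p 0.0849).

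Counting Ccna2 as mitotic gave medians of -1.05, 0.36 and -1.42 in the 3 comparisons. The planned limit to genes without shared genome sequence was not run and was replaced by the transcript version. Where a lone ABCG1KO library was left, it was assumed to vary like the other groups. The depth sets how well the rarest members can be compared, as Mybl2 and Chek1 rest on 15 counts in LysM-DKO 1.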
